A study of Danio rerio with 32 samples.

Results

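The 10 genes of yolk lipoprotein and lipid export followed here across all retene concentrations were apoa1a, apoa1b, apoa2, apoba, apobb.1, apoea, apoeb, mttp, pla2g12b and rbp4. They were chosen by name, and all 10 were found among the 22686 genes of the deposited table. Zebrafish of the Tropical 5D line were dechorionated at 4 hpf, statically exposed from 6 hpf to retene, a polycyclic aromatic hydrocarbon that activates the aryl hydrocarbon receptor, or to DMSO alone, and collected at 48 hpf. The control received DMSO, and retene was given at 7 concentrations, the lower ones being 0.205, 0.512 and 1.28 µM, the middle ones 3.2 and 8 µM, and the higher ones 20 and 50 µM. Each group had 4 pools of 9 whole larvae, and only morphologically normal fish were pooled. In pooled whole larvae, fewer cells of a type and less RNA per cell cannot be told apart. No source says whether the pools of a group came from separate clutches or plates, so the p-values measure the spread between these pools.

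The yolk of a zebrafish embryo is enclosed by the yolk syncytial layer, which packs yolk lipid into lipoproteins and secretes them into the circulation before the fish can feed. The same genes later act in the liver and intestine. Apolipoprotein B forms the scaffold of the particle, microsomal triglyceride transfer protein loads lipid onto it, and the smaller apolipoproteins A and E sit on particle surfaces and direct particle remodelling and uptake.

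Values are normalized counts (reads divided by the size factor of the pool), and differences are on the deposited log2 scale (Log2FC), which approaches a log2 ratio in abundant transcripts and is compressed in scarce ones. Pools held between 7720701 and 8656870 reads on genes. The 10 genes together took 1.34 to 1.37% of the reads in the 50 µM pools and 1.15 to 1.39% in the control pools, so the 50 µM range lay inside the control range. As a check of the labels, cyp1a, the classical target of the aryl hydrocarbon receptor, ranged from 16565 to 21432 normalized counts in the 50 µM pools and from 20.0 to 36.5 in the control pools. Transcripts of liver and yolk syncytial layer markers, mostly genes of secreted proteins, were present in every pool. Their summed level was 20538 to 24815 normalized counts over 21 genes in the control. Markers of the intestine were low, with a sum of 150 to 191 over 7 genes. Compared with other pools of their group, control replicate 2, 8 µM replicate 4 and 50 µM replicate 2 stood apart over the whole table in an earlier analysis. For the 10 genes, results that moved most without control replicate 2 are given with and without it. Genes of the other lists were not examined without it.

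None of the 10 genes was a differentially expressed gene (DEG; limma, adjusted p under 0.05) at any single concentration, and 1, apoba, passed the test for a trend over concentrations. At 0.205 and 0.512 µM no gene of the table was a DEG by this fit (0%). The paper did report DEGs at 0.512 µM with DESeq2, cyp1a among them. In those pools cyp1a had 74.7 to 341 normalized counts, above every control pool. The share of all genes that were DEGs was 0.0838% at 1.28 and at 3.2 µM, 0.344% with 8 µM retene, 0.586% with 20 µM and 2.48% with 50 µM. From the lowest to the highest concentration, 1, 1, 1, 3, 2, 1 and 1 of the 10 genes had an unadjusted p under 0.05, where 7.44, 6.32, 13, 9.72, 9.94, 11 and 15.2% of all genes did. Limma with voom weights called 0 of the 10 at each concentration. The trend called 5.28% of all genes, and the joint F-test of the 7 concentrations called 1.86% and none of the 10. By the F-test 3 of the 10 genes had an unadjusted p under 0.05, as did 12.9% of all genes, and with voom weights it called 0 of them. With DEGs this rare in the table by limma, 0 of 10 is close to the background at every concentration. The 1 of 10 by the trend is also near its background of 5.28%. At every concentration but the lowest, the paper reported more DEGs by DESeq2 than limma called here. The 0 of 10 is therefore a result of the limma fits, and DESeq2 was not run on the 10 genes here.

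All 70 of the 95% intervals (10 genes at 7 concentrations) lay between -0.41, for apoea at 50 µM, and 0.50, for apoa1a at 8 µM, on the deposited scale. The scale is compressed for the scarce mttp, whose bounds are wider as ratios. Differences within these bounds were called in other genes at 50 µM, such as krt91 (Log2FC -0.40) and fetub (0.47). The median Log2FC of the 10 genes was 0.08, 0.07, 0.04, 0.11, 0.01, 0.01 and 0.00 from 0.205 to 50 µM, while that of all genes lay between -0.01 and 0.01. At 50 µM 5 of the 10 genes were above the control mean and 5 below.

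**Figure D1:**
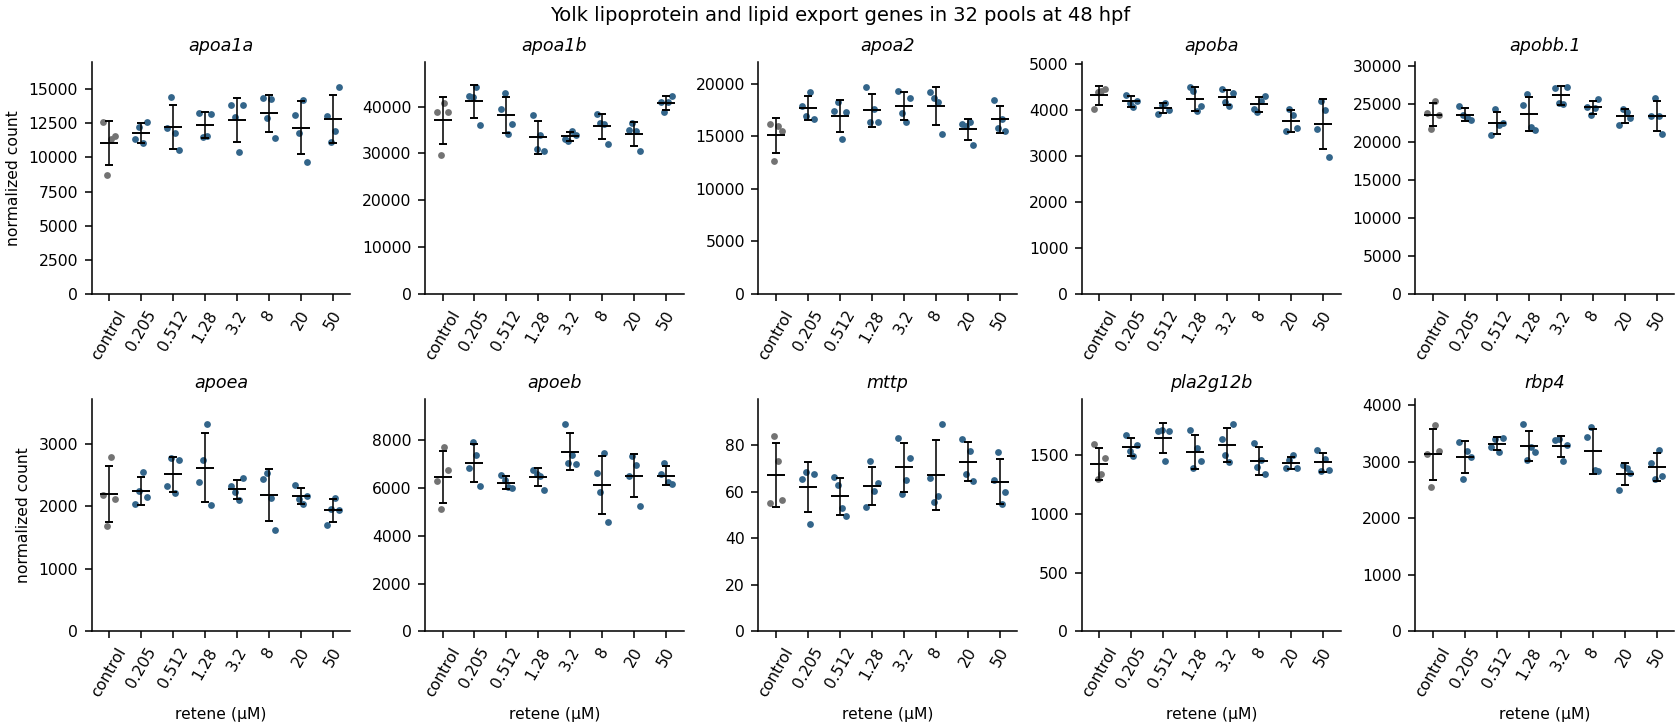
Normalized counts (vertical axis, from 0) of the 10 genes in each of the 32 pools, by retene concentration in µM with the control at the left; points are pools, bars are means and whiskers are 1 SD of 4 pools. apoba has its lowest means at 50 and 20 µM, 3680 and 3755, against 4310 in the control, and the pools of all 10 genes overlap those of the control at both concentrations.

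Apolipoprotein B genes encode the large structural protein of the exported particle, a single molecule of which runs through the whole particle. apoba had 3579, 4187, 3989 and 2965 normalized counts in the 50 µM pools and 3528, 4013, 3888 and 3591 in the 20 µM pools, against 4003, 4373, 4414 and 4449 in the control pools. Replicate 2 at 50 µM and replicate 2 at 20 µM lay above the lowest control pool, so both groups overlapped the control, and replicate 4 at 50 µM was the lowest of all 32 pools. The mean was 3680 ± 540 at 50 µM and 3755 ± 233 at 20 µM, against 4310 ± 207 in the control (SD, n = 4 each). The Log2FC of apoba was -0.23 at 50 µM (SE 0.0679, 95% interval -0.37 to -0.09, adjusted p = 0.0595 by limma) and -0.19 at 20 µM (adjusted p = 0.246 by limma). Neither passed the threshold.

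Between 0.205 and 8 µM the apoba means were 4178, 4035, 4231, 4264 and 4112, or -3.06, -6.39, -1.82, -1.07 and -4.59% relative to the control mean. The linear trend over the ranks from the control through 50 µM gave apoba a slope of -0.0273 per step on the log2 scale (SE 0.00741, 95% interval -0.0424 to -0.0123, adjusted p = 0.0227 by limma). The means did not fall at every step: they rose from 0.512 to 3.2 µM and were lowest at 20 and 50 µM. The trend rested partly on 1 library: without 50 µM replicate 4 the slope was -0.0193 and its adjusted p 0.0771. That pool was the lowest of its group for 27.3% of all genes and the highest for 33.0%. For 50 µM replicate 2, which stood apart in the earlier analysis, these shares were 29.7 and 25.8%. In the other direction, without 50 µM replicate 2 the Log2FC at 50 µM was -0.30 and its adjusted p 0.00969, and without 50 µM replicate 3 they were -0.27 and 0.0418. Of all genes these fits called 930 and 361 at 50 µM, against 562 with every pool. Whether apoba counts as a DEG at 50 µM therefore depended on which pools entered the fit. It also depended on processing: with every pool kept, apoba passed with quantile normalization (adjusted p = 0.00712 by limma). With genes limited to a mean normalized count of at least 10, apoba passed too (adjusted p = 0.0488 by limma).

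apobb.1 had 23396, 25710, 23397 and 21016 normalized counts in the 50 µM pools, against 23733, 21649, 25344 and 23460 in the control pools. The groups overlapped almost fully, and the Log2FC was -0.01 (95% interval -0.14 to 0.12, adjusted p = 0.958 by limma). The highest apobb.1 mean was at 3.2 µM, with 27116, 25080, 24916 and 27187 normalized counts. Of the 4, replicates 1 and 4 lay above every control pool, and the Log2FC of 0.15 did not pass the threshold (unadjusted p = 0.0313, adjusted p = 0.476 by limma). The slope of apobb.1 was 0.0047 per step (95% interval -0.0099 to 0.0193), against -0.0273 for apoba; the difference between the slopes was not tested.

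A further apolipoprotein B gene, apobb.2, was not among the 10 but was the gene whose values followed apoba most closely (Pearson r = 0.849 over the 32 pools with the group means left in, out of 17956 genes with a mean normalized count of at least 10). With the group means removed its r was 0.77, below that of nnt (0.803). It had 533.2, 830.1, 641.1 and 445.7 normalized counts in the 50 µM pools and 637.2, 647.2, 676.6 and 650.6 in the 20 µM pools, against 865.6, 1003, 818.2 and 940.3 in the control pools. Every 20 µM pool was below every control pool, while replicate 2 at 50 µM reached into the control range. apobb.2 was lower at 50 µM (Log2FC -0.53, adjusted p = 0.000951) and at 20 µM (Log2FC -0.42, adjusted p = 0.0293), with a slope of -0.0681 per step (adjusted p = 4e-05, all by limma). In both genes 50 µM replicate 4 was the lowest pool and 50 µM replicate 2 the highest of its group. How reads were divided between these related genes by the authors' counting was not tested.

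**Figure D2:**
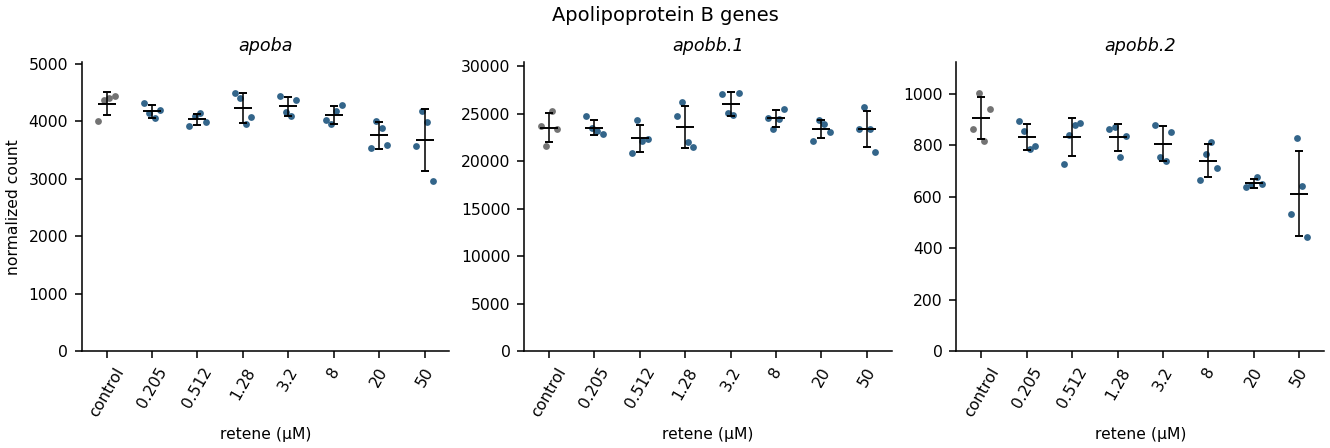
Normalized counts of the 3 apolipoprotein B genes by pool (vertical axes from 0), with the control at the left and retene concentrations in µM after it; bars and whiskers are means and SD of 4 pools. apoba and apobb.2 are lowest at 20 and 50 µM, with 50 µM replicate 4 the lowest point in each, while apobb.1 stays between 20874 and 27187 throughout.

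The lipid loading and particle growth genes did not pass the trend test, with slopes of 0.0091 for mttp (adjusted p = 0.675) and -0.0115 for pla2g12b (adjusted p = 0.488, both by limma). mttp, which encodes the lipid transfer protein that acts on apolipoprotein B, had few reads, from 44 to 93 per pool. It had 65.1, 77.1, 54.6 and 59.8 normalized counts in the 50 µM pools, against 55.2, 83.8, 73.4 and 56.2 in the control pools. The control pools spanned nearly the whole 50 µM range, and the Log2FC was -0.03 (95% interval -0.20 to 0.14, adjusted p = 0.913 by limma). At this count level 1 unit of the deposited scale stands for about 2.06 log2 units of the count, so these intervals are about that much wider as ratios. The CV within groups was 16.6%, where counting alone gives 12.3%.

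pla2g12b, a phospholipase family member that zebrafish and mouse mutants have tied to the expansion of lipoprotein particles, had 1545, 1364, 1473 and 1379 normalized counts in the 50 µM pools, against 1602, 1296, 1339 and 1477 in the control pools. The groups overlapped, with a Log2FC of 0.01 (95% interval -0.13 to 0.16, adjusted p = 0.953 by limma). Its mean was highest at 0.512 µM, where the pools had 1710, 1716, 1452 and 1707 normalized counts. Replicates 1, 2 and 4 there lay above every control pool, and the Log2FC of 0.19 had an unadjusted p of 0.0104 and an adjusted p of 0.759 by limma.

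apoa1a and apoa1b encode apolipoprotein A1, the main protein of high-density lipoprotein. apoa1a had 13001, 11106, 11909 and 15149 normalized counts in the 50 µM pools, against 12563, 8743, 11317 and 11552 in the control pools. Its control mean of 11044 was the lowest of the 8 groups and its 8 µM mean of 13221 the highest, and at 8 µM its Log2FC of 0.26 was the largest among the 70 (95% interval 0.03 to 0.50, adjusted p = 0.424 by limma). The low control mean included replicate 2, the lowest apoa1a pool of all 32. Without it the Log2FC at 8 µM was 0.16 (adjusted p = 0.823 by limma).

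apoa1b, which had 29711 to 44167 normalized counts per pool, did not move steadily with concentration. It had 40960, 38737, 40981 and 42244 normalized counts in the 50 µM pools, against 38905, 29711, 40858 and 38800 in the control pools. From 0.205 µM upward to 20 µM its means were 41122, 38166, 33440, 33674, 35817 and 34191. The 4 pools at 3.2 µM were 33164, 32686, 34814 and 34034, below 3 of the 4 control pools and above control replicate 2. By the F-test apoa1b had the smallest p of the 10 genes (unadjusted p = 0.00448, adjusted p = 0.128 by limma). Without control replicate 2 the adjusted p was 0.0243, which passed the threshold, and the Log2FC was -0.25 at 1.28 µM and -0.23 at 3.2 µM (adjusted p = 0.368 and 0.695 by limma).

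apoa2 encodes a further high-density lipoprotein protein. It had 19303, 17184, 16344 and 18665 normalized counts in the 3.2 µM pools, 19668, 16318, 17537 and 16382 in the 1.28 µM pools and 17878, 16928, 19157 and 16669 in the 0.205 µM pools, against 16196, 12645, 15936 and 15481 in the control pools. At these 3 concentrations each exposed pool was above each control pool. At the other 4 concentrations the pools overlapped the control, and at 50 µM they were 18406, 15769, 16663 and 15492. From the lowest to the highest concentration the Log2FC of apoa2 was 0.23, 0.17, 0.22, 0.25, 0.24, 0.06 and 0.14. The smallest adjusted p was 0.262, at 8 µM (limma). Without control replicate 2 the Log2FC at 0.205, 1.28, 3.2 and 8 µM was 0.15, 0.13, 0.17 and 0.16 (adjusted p = 0.981, 0.636, 0.875 and 0.693 by limma). Without 8 µM replicate 4 the Log2FC at 8 µM was 0.32, which passed the threshold (adjusted p = 0.0492 by limma). That fit called 336 of all genes at 8 µM, against 78 with every pool.

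Counted over all 10 genes, pools that did not overlap the control occurred for 1 gene, apoa2, at 0.205 µM, where this held for 4.73% of all genes, at 1.28 µM (6.97%) and at 3.2 µM (5.36%). It occurred for 0 of the 10 at 0.512 µM (3.5% of all genes), 8 µM (4.67%), 20 µM (7.39%) and 50 µM (7.15%).

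apoea and apoeb encode apolipoprotein E, the ligand by which lipoprotein receptors take up particles. In zebrafish apoeb is also known from the yolk syncytial layer and microglia. apoea had 1697, 1962, 2129 and 1948 normalized counts in the 50 µM pools, against 2188, 1691, 2792 and 2116 in the control pools. Its 50 µM mean of 1934 was the lowest of the 8 groups and its 1.28 µM mean of 2618 the highest, but the control pools alone spanned 1691 to 2792, and the Log2FC at 50 µM was -0.16 (95% interval -0.41 to 0.10, adjusted p = 0.588 by limma). Without control replicate 2 it was -0.27 (adjusted p = 0.367 by limma). The apoea slope was -0.0256 per step with all pools (adjusted p = 0.342 by limma). Without that pool it was -0.035 (unadjusted p = 0.0123, adjusted p = 0.136 by limma), against -0.0267 for apoba (adjusted p = 0.0382 by limma).

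apoeb had 6603, 7050, 6246 and 6166 normalized counts in the 50 µM pools, against 6305, 5102, 7716 and 6762 in the control pools. All 4 exposed pools lay inside the control range, with a Log2FC of 0.02 (95% interval -0.21 to 0.25, adjusted p = 0.952 by limma). The highest apoeb mean was at 3.2 µM (7521 ± 784, SD, n = 4), where the Log2FC was 0.22 and the adjusted p 0.526 by limma, against 0.12 and 0.979 without control replicate 2. The summed level of 10 macrophage and microglia markers was 329.7 to 377.9 normalized counts in the 50 µM pools, against 368.7 to 446.8 in the control pools. Of these markers csf1rb was the most abundant, and none was at 0 in all pools. Their part in the apoeb values was not tested.

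rbp4 encodes the carrier that transports retinol, a lipid stored in the yolk, through the blood. It had 2974, 2693, 3215 and 2742 normalized counts in the 50 µM pools and 2503, 2946, 2897 and 2798 in the 20 µM pools, against 3132, 2548, 3647 and 3190 in the control pools. The 20 µM pools were below 3 of the 4 control pools, and only control replicate 2 was as low. The Log2FC was -0.10 at 50 µM (adjusted p = 0.644) and -0.15 at 20 µM (adjusted p = 0.519), and the slope of -0.0186 per step had an adjusted p of 0.306 (all by limma). Without control replicate 2 the Log2FC was -0.19 at 50 µM (adjusted p = 0.342) and -0.25 at 20 µM (adjusted p = 0.272), and the slope was -0.0262 (adjusted p = 0.0825, all by limma).

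**Figure D3:**
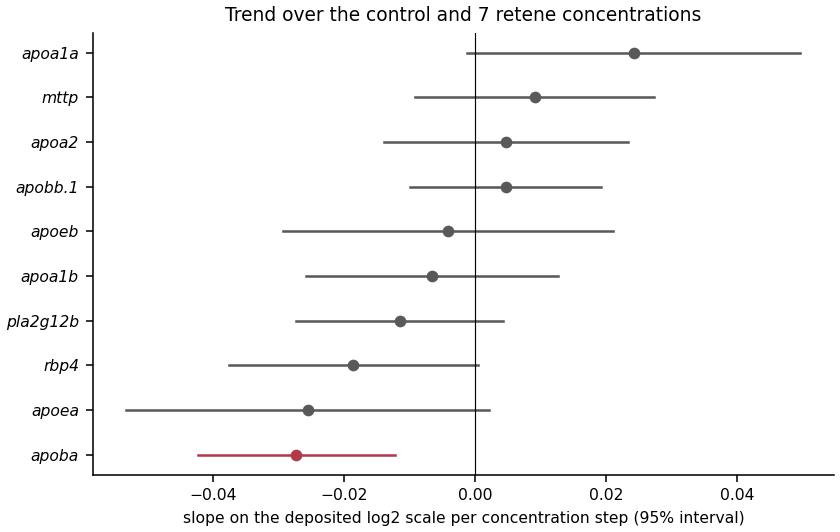
Slope per concentration step on the deposited log2 scale (horizontal axis) for each of the 10 genes, with 95% intervals; the red gene passed the trend test over all genes. With all pools the slopes run from -0.0273 for apoba to 0.0243 for apoa1a, and only the apoba interval leaves out 0. Without control replicate 2 the slopes of apoea and rbp4 also had an unadjusted p under 0.05 by limma.

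Control replicate 2 had low values for most of these genes. It was the lowest of the 4 control pools for 8 of the 10 genes, the exceptions being apoba and mttp, while 30.4% of all genes had their lowest control value there. Its median difference from the other control pools over the 10 genes was -0.35 on the log2 scale. Without it, the median Log2FC of the 10 genes was 0.00, -0.02, 0.00, 0.10, -0.04, -0.07 and -0.04 from 0.205 to 50 µM, and 0 of the 10 were DEGs at any of these concentrations. At 20 µM 2 of the 10 differences were then positive, against 5 of 10 with it.

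8 µM replicate 4 was the lowest of its group for 7 of the 10 genes (32.7% of all genes) and the highest for the other 3, which were apoba, apobb.1 and mttp. 3.2 µM replicate 3 was the lowest for 7 genes (21.3% of all genes) and 20 µM replicate 4 for 6 (25.7%).

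**Figure D4:**
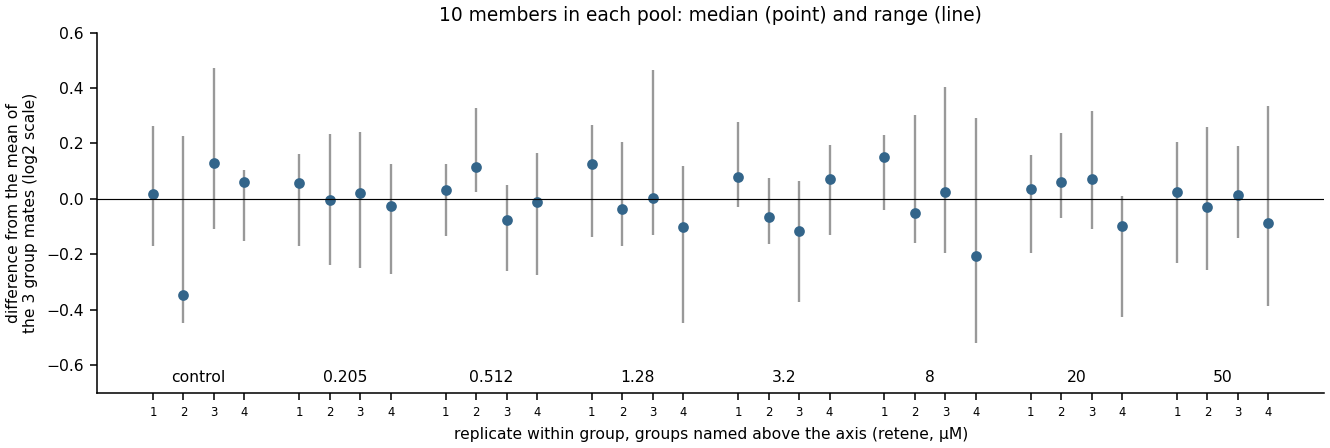
Difference of each pool from the mean of the other 3 pools of its group on the deposited log2 scale (vertical axis), with the control at the left and retene concentrations in µM after it; the point is the median of the 10 genes and the line their range. Control replicate 2 has the lowest median, -0.35, followed by 8 µM replicate 4 at -0.21.

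After the group means were removed, the 10 genes were compared with each other over the 32 pools. Of the 45 pairs 35 had a positive Pearson r, the median r was 0.274, and 18 pairs had an adjusted p under 0.05 (permutation test with 100000 resamples, Benjamini-Hochberg over the 45 pairs), 17 of them positive. The highest was apoa1b with apoa2 (r = 0.798, Spearman rho = 0.65, permutation adjusted p = 0.00015 and 0.0012). Next were apoa2 with pla2g12b (r = 0.754, rho = 0.69, permutation adjusted p = 0.00015 and 0.0009) and apoba with apobb.1 (r = 0.706, rho = 0.71, permutation adjusted p = 0.00015 and 0.0009). The raw permutation p of each r was 1e-05, the smallest that this number of resamples can give. The pools were shuffled freely although the group means had been removed, so all permutation p-values here and below are too small. Fewer pairs may pass a test that allows for this. Without the 2 pools farthest from the median of the first gene, r was 0.755, 0.723 and 0.61 for these pairs in that order.

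Without the 3 pools that stood apart the median r was 0.27, and 4 pairs passed: apoa1b with apoa2 (r = 0.68), apoa2 with pla2g12b (r = 0.707), apoba with apobb.1 (r = 0.702) and apoa1b with apoeb (r = 0.547, permutation adjusted p = 0.0264). The 1 negative pair that passed over all pools, mttp with rbp4 (r = -0.451), had r = -0.162 without them. The apolipoprotein B pair thus varied together from pool to pool within groups, as did apoa2 with apoa1b and pla2g12b, while r between apoba and apoa2 was 0.037 over all pools and 0.276 without the 3. Some genes outside this set had an r as high with a gene in it. Over all pools with the group means removed, r was 0.851 for rplp0 with apoa2, 0.812 for rps10 with apoa1b and 0.803 for nnt with apoba. These were picked as close genes out of 17956. How often other gene pairs vary together this way was not counted.

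**Figure D5:**
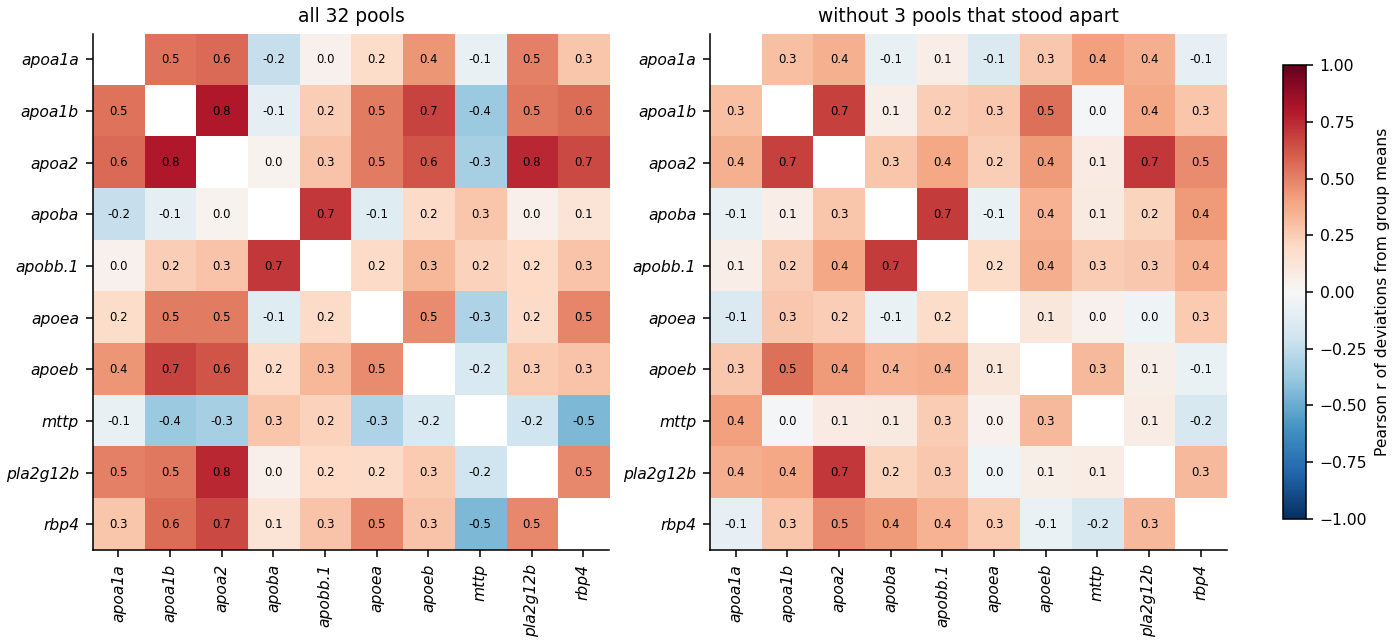
Pearson r between the 10 genes over deviations from group means, for all 32 pools (left) and without control replicate 2, 8 µM replicate 4 and 50 µM replicate 2 (right); red is positive and blue negative. The pairs apoa1b with apoa2, apoa2 with pla2g12b and apoba with apobb.1 keep an r of at least 0.68 in both panels, and 10 of the 45 pairs change sign.

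As a description over the same 32 pools, genes outside the 10 with the most similar values included apoc2 for apoa2 (r = 0.869), rps10 for apoa1b (r = 0.815), tfip11 for rbp4 (r = 0.794), mid1ip1a for apoea (r = 0.734), wbp2nl for apoa1a (r = 0.725), pax7b for mttp (r = 0.719), rb1 for apoeb (r = 0.717) and stambpb for apobb.1 (r = 0.675). The second most similar included rplp0 (apoa2), akt1s1 (pla2g12b), nnt (apoba), aldh9a1a.1 (rbp4), snrpg (apoea), nt5c3a (apoa1a), tbc1d2 (mttp), slc25a20 (apoeb) and tnn (apobb.1), with r between 0.636 for tnn and 0.867 for rplp0. Here the group means were left in, so these r values are not on the same footing as the r between the 10 genes above. They share libraries and depth, and each gene has 1 of the 2 largest r among 17956. In the order of protein-coding genes of the GRCz12tu assembly, apoeb, apoc1, apoc4, apoa2 and apoc2 are neighbours, and apoea lies next to apoa4a.

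Among 29 other apolipoprotein and lipoprotein assembly genes, 1 was lower and 0 higher at 20 µM, where 0.586% of all genes were called. At 50 µM 1 was lower and 1 higher (2.48% of all genes), and 1 had a falling and 2 a rising trend (5.28%). The falling gene was apobb.2 in each. At 20 µM, at 50 µM and by the trend, 4, 5 and 10 of the 29 had an unadjusted p under 0.05 by limma. Of all genes 11, 15.2 and 17.2% did. The gene that rose was apoc1, a small apolipoprotein that modulates lipases and particle uptake. It had 17293, 14431, 16221 and 15115 normalized counts in the 50 µM pools, against 12605, 10412, 9751 and 11939 in the control pools. No 50 µM pool overlapped the control, the Log2FC was 0.50 (SE 0.121, adjusted p = 0.0174 by limma), and the slope was 0.0502 per step (adjusted p = 0.0183 by limma). apoc1 lies beside apoeb and near apoa2, neither of which was called. tm6sf2b, whose human counterpart takes part in loading lipid onto particles, had a rising trend (slope 0.0288, adjusted p = 0.0335 by limma). The median Log2FC of the 29 genes at 50 µM was -0.01, against 0.00 over all genes.

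Of 28 receptor, lipase and plasma remodelling genes 0 passed at 20 or 50 µM by limma, with 4 and 3 at an unadjusted p under 0.05, where 11 and 15.2% of all genes had one. By the trend, which called 5.28% of all genes, vldlr, a receptor of lipid-rich particles, rose (slope 0.0274, adjusted p = 0.0398 by limma). By the same test cetp, which exchanges lipids between particles, fell (slope -0.0387, adjusted p = 0.0123 by limma). The mean of cetp was 126 normalized counts at 0.205 µM and 73.4 at 50 µM, against 85.7 in the control, and its F-test passed (adjusted p = 0.0357 by limma). The next smallest trend p was that of scarb1, a high-density lipoprotein receptor (slope 0.0249, adjusted p = 0.0841 by limma).

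Of 23 regulators of lipoprotein and sterol genes 0 passed at 20 µM, at 50 µM or by the trend in limma, with 2, 2 and 3 at an unadjusted p under 0.05 (11, 15.2 and 17.2% of all genes). Transcription factors among those with the smallest trend p-values were foxa3 (slope -0.0185, adjusted p = 0.1) and hnf1bb (slope -0.0166, adjusted p = 0.277 by limma). Transcripts of the yolk precursor proteins were scarce, with a sum over vtg2, vtg3 and vtg5 of 2.89 to 21.3 normalized counts in the 50 µM pools, against 3.95 to 8.87 in the control pools, and 0 of the 3 passed at 20 µM, at 50 µM or by the trend in limma, with 0 at an unadjusted p under 0.05.

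A list of 9 genes other than rbp4 held retinol carriers, transporters and related enzymes. Of the 9, 0 passed at 20 or 50 µM in limma, with 4 and 3 at an unadjusted p under 0.05 (11 and 15.2% of all genes). By the trend 1 passed (5.28% of all genes): bco1, which cleaves carotenoids to retinal, rose (slope 0.0363, adjusted p = 0.00563 by limma). rbp2a and lrata followed in order of trend p, with slopes of -0.034 (adjusted p = 0.0659) and -0.0215 (adjusted p = 0.226, both by limma). lrata was scarce, with a mean of 10.4 normalized counts in the control and 4.94 at 50 µM. The deposited scale is compressed at this level, so the 2 slopes cannot be compared as ratios.

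The list of 21 markers of the liver and yolk syncytial layer holds mostly genes of secreted proteins. Of these 21, 1 was higher at 50 µM and 0 lower (2.48% of all genes were called). This was fetub, which had 11637, 11636, 11983 and 11250 normalized counts in the 50 µM pools, against 9038, 7034, 7885 and 9880 in the control pools (Log2FC 0.47, adjusted p = 0.039 by limma). The lowest control value was that of control replicate 2, and fetub was not examined without this pool. The summed level of the 21 genes was 25724 to 27967 in the 50 µM pools, against 20538 to 24815 in the control pools, and fetub was the most abundant of them. The median Log2FC of the list was -0.02 at 50 µM, against 0.00 over all genes. agt and fgb, next by trend p, had slopes of -0.0313 (adjusted p = 0.0905) and -0.0302 (adjusted p = 0.0984). The sums of the 50 µM and control pools did not overlap. Without fetub, the sum of the other 20 genes was 14088 to 16330 in the 50 µM pools, against 13504 to 15595 in the control pools, with means of 14819 and 14811. The part of these genes in the apoba values was not tested.

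Intestinal markers had a summed level of 149.9 to 188 in the 50 µM pools, against 150 to 191 in the control pools. Of the 7, 1, cldn3d, fell by the trend (slope -0.0327, adjusted p = 0.0141 by limma). Its mean was 61.9 normalized counts at 0.205 µM, 32.1 at 20 µM and 39.6 at 50 µM, against 44.8 in the control. The Log2FC of cldn3d at 50 µM was -0.07 (adjusted p = 0.711 by limma). The slopes were 0.0081 for cldn15la (adjusted p = 0.709) and 0.0082 for slc15a1b (adjusted p = 0.762, both by limma). Of the 10 macrophage and microglia markers 1, csf1rb, fell by the trend (slope -0.0335, adjusted p = 0.0323), and lcp1 and p2ry12 had slopes of -0.0162 and -0.0147 (adjusted p = 0.305 and 0.33). Of 6 skin markers 3 keratins, krt4, krt91 and krt1-19e, were lower at 50 µM, with a Log2FC of -0.33, -0.40 and -0.47 (adjusted p = 0.00363, 0.00317 and 0.000664 by limma). The skin sum was 103126 to 111817 in the 50 µM pools, against 114620 to 139801 in the control pools, with no overlap. The part of the skin markers in the apoba values was not tested. Over all genes, limma called 2.48% at 50 µM and 5.28% by the trend. With voom weights, limma called the same genes of all these lists at 20 µM, at 50 µM and by the trend.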

How the data were processed

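mRNA of 32 pools was sequenced. Alignment by the authors used STAR and GRCz11, gene counts came from HTSeq, genes without reads in 8 or more pools were dropped by the authors, and DESeq2 served the authors for normalization. Per the values, what was deposited is on the log2 scale of that tool's variance-stabilizing transformation, a step the paper's text does not name. Reversing it gave whole reads for 100.0% of the values (tolerance 0.01 reads), from which normalized counts were taken. No count model was fitted to the deposited values, which are transformed, or to the recovered reads. The recovered reads entered limma only with voom weights, as an alternative. Each concentration was compared with the control on the deposited log2 values by limma 3.58.1 (R 4.3.3) in a fit of all 32 pools that gave each group its own mean, with a mean-variance trend, no replicate block and Benjamini-Hochberg adjustment over all 22686 genes within a comparison. The trend was a linear contrast over the rank of the 8 groups, and the F-test took the 7 concentrations together. Correlations and plots were made in Python 3.11.15 with NumPy 2.4.6, SciPy 1.17.1, pandas 2.3.3 and matplotlib 3.10.9.

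Genes were named from the deposited identifiers (21030 matched a symbol). The 10 genes and all gene lists were chosen with earlier results of these data known. The text names all 10, for each list the 3 genes with the smallest trend p and any gene called at 20 µM, 50 µM or by the trend, and cyp1a, and for each of the 10 the 2 genes most like it by Pearson r. Some genes that this rule names are not reported here. Of the listed genes, 135 of 161 were in the table and the others were not analysed here. Alternatives were the log2(normalized count + 0.5) scale, voom weights on the recovered reads, a mean normalized count of at least 10, no mean-variance trend, only the groups compared, quantile normalization, a replicate block, an adjusted p under 0.01, and pools left out. The limma fit was tested on simulated data. No sequences, coordinates or transcript lengths are given, and levels were not compared between genes.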

Additional observations from a re-analysis of the deposited data

Results flagged for a closer look

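In 5 of the 80 sets of 4 pools (10 genes in 8 groups), 1 pool lay far from the others by Dixon's ratio, the gap to the nearest pool over the whole range, being above its 95% critical value. Chance flags about 1 set in 20, so this number is near what chance gives. All 5 pools were the lowest of their group. apoa1b in control replicate 2 had 29711 normalized counts, against 38905, 40858 and 38800 in the other control pools (ratio 0.838). apoa2 in 20 µM replicate 4 had 14200, against 16124, 16003 and 16331 (ratio 0.855). apoba in control replicate 1 had 4003, against 4373, 4414 and 4449 (ratio 0.836). mttp in 0.205 µM replicate 3 had 46.1, against 65.3, 68.5 and 67.8 (ratio 0.869). pla2g12b in 0.512 µM replicate 3 had 1452, against 1710, 1716 and 1707 (ratio 0.97).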

How the results depend on the processing

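Over 369 counts of called genes or pairs under alternatives, 357 stayed within 1.5 times the reported count. The reported count was 0 at each concentration and by the F-test, where staying within this limit means staying at 0. The stricter adjusted p under 0.01 could not raise a count of 0, so the 357 was partly fixed in advance. At 50 µM the count was 1 (apoba) in place of 0 with a mean normalized count of at least 10 (adjusted p = 0.0488), with quantile normalization (0.00712), with the 3 pools that stood apart left out (0.0195), and between 0 and 1 when single pools were left out. At 8 µM it was 0 to 1 when single pools were left out. The trend called 0 in place of 1 at an adjusted p under 0.01, and 0 to 1 when single pools were left out. The F-test called 1 (apoa1b) in place of 0 with quantile normalization (0.0122) and with the 3 pools left out (0.0146), and 0 to 1 when single pools were left out. Of the correlations, 4 pairs passed in place of 18 with the 3 pools left out. The apoba Log2FC at 50 µM ranged from -0.30 to -0.14 over 41 alternatives and passed in 5, and its slope ranged from -0.0328 to -0.0193 and passed in 38 of 40. Of 3270 single values of the 10 genes, 3161 kept direction and call, 6 gained and 2 lost a call, and the other changes were of sign in uncalled values. Among all genes, alternatives called 182 to 930 at 50 µM (562 reported), 68 to 170 at 20 µM (133), 21 to 336 at 8 µM (78), 6 to 34 at 3.2 µM (19), 4 to 61 at 1.28 µM (19), 0 to 2 at 0.512 µM (0), 0 to 1 at 0.205 µM (0), 594 to 1489 by the trend (1198) and 209 to 572 by the F-test (422). The causes were not tested.

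With a replicate block the counts for the 10 genes were again 0 at each concentration and 1 by the trend (apoba slope -0.0273, adjusted p = 0.0262). By the median, pools of different groups with the same replicate number were no more alike than others. The median r of their deviations was 0.002, against 0.005 for different numbers. Between a control pool and the same-numbered exposed pool, 9 of 28 correlations exceeded 0.1 (range -0.403 to 0.331). Reads shared between related apolipoprotein genes were not examined.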
